A study of Mus musculus with 4 samples.

Results

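Clec3b, Clec11a and Clec3a encode secreted proteins with a C-type lectin domain that have been studied in bone or cartilage. They were taken as a named set, by matching the RefSeq accession of each probe set to the current mouse symbol, and each of the 3 genes had 1 probe set among the 908 named genes of the table. The set was selected on the log2 differences of these same 4 arrays, between streptozotocin and control and between cultures, so all values of the 3 genes below are descriptions without a test. The study put RNA of vascular smooth muscle cells (VSMC), which give the artery wall its contractile layer, on expression arrays. The cells came from wild-type mice and had been brought to a bone-like state with osteogenic medium in every group. Streptozotocin, a nitrosourea built on glucosamine and used to destroy pancreatic beta cells, was added at 0.4 mM for 2 arrays, and the other 2 arrays were of control cells without it. In both groups 1 array came from cells named WTA (replicate 2) and 1 from cells named WT2 (replicate 1), which are referred to as cultures. Whether these are separate animals is not stated in the labels, and each combination of culture and treatment was measured once.

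C-type lectins share a fold that in many members binds sugars in the presence of calcium, but several secreted members bind proteins instead. Clec3b encodes tetranectin, which binds a kringle domain of plasminogen and is found in plasma and in mineralizing tissue. Clec11a encodes osteolectin, also called stem cell growth factor, which is secreted by stromal cells of the bone marrow and promotes the maturation of osteoblasts through an integrin receptor and Wnt signalling. Clec3a encodes a relative of tetranectin made mainly in cartilage. VSMC in calcifying arteries take up parts of the bone and cartilage programme, which is the setting in which the study asked about sugar-related genes.

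The deposited values are log2 expression values made by robust multi-array averaging (RMA), so a difference of 1 is a doubling of the signal. The 4 array medians lay between 5.83 and 5.87, and the precision is limited by the number of arrays. None of the 8 smooth muscle markers and none of the 6 osteoblast markers looked for had a named probe set, so the labelled cell type and the bone-like state could not be checked from them. Of the fibroblast and matrix markers, 3 of 6 were measured and bright, namely Dcn (11.96 to 12.73), Lum (9.19 to 10.51) and Pdgfra (11.30 to 12.54). The 5 measured leukocyte and macrophage markers averaged 5.04 to 5.23 per array, but their levels were uneven. Adgre1 had a mean of 2.95 over the arrays, whereas Csf1r, at 7.61, lay above the array medians. The 7 measured endothelial markers had a median culture difference (WTA minus WT2) of 0.15, and limma called 1 of them higher in WTA (Esm1, 4.93) and 1 lower (Cd34, -1.07). Over all 1246 probe sets limma called 2.25% between cultures, 0.803% lower in WTA, and 7 genes are too few to set against these shares.

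Clec3b had log2 values of 7.53 in WTA and 8.14 in WT2 cells with streptozotocin, against 8.68 in WTA and 9.08 in WT2 control cells. Both streptozotocin arrays lay below both control arrays, as at 13.8% of probe sets. The group means were 7.84 ± 0.43 with streptozotocin and 8.88 ± 0.29 without it (SD, n = 2 arrays per group). The difference of -1.04 puts the signal with streptozotocin at 0.485 times that of control. Within the cultures the difference was -1.15 in WTA and -0.94 in WT2. These lay 0.21 apart, where the median gap between the cultures' differences over all probe sets was 0.161 and the upper quartile 0.305. From low to high the arrays of Clec3b ran streptozotocin WTA, streptozotocin WT2, control WTA and control WT2. The step between the 2 groups, from streptozotocin WT2 to control WTA, was 0.54, larger than the SD within either group. Each of these SDs holds the gap between the cultures.

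**Figure D1:**
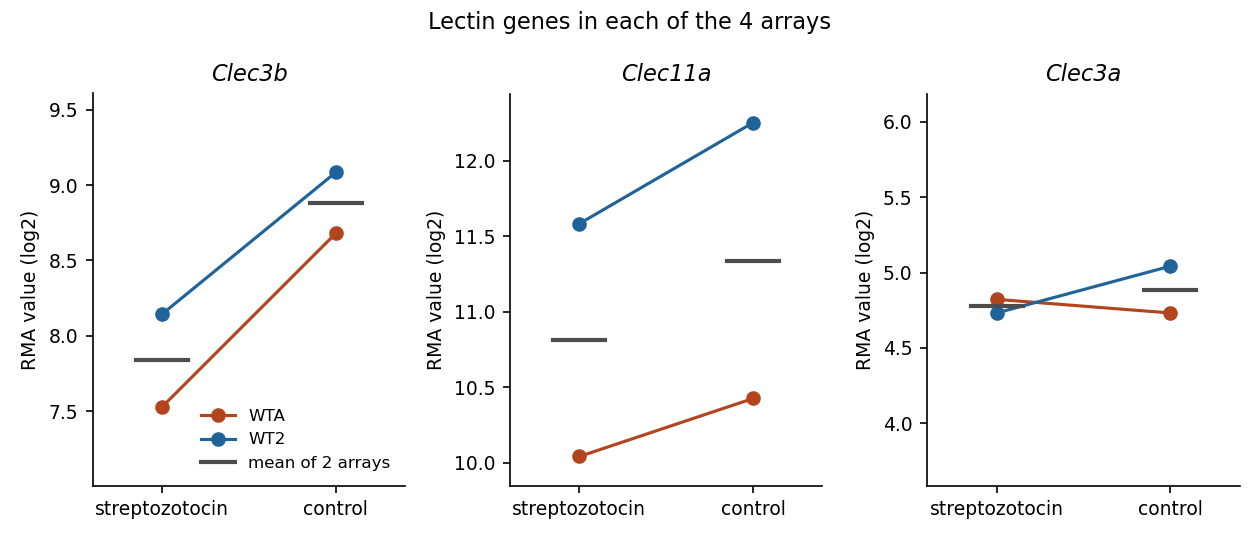
RMA values (log2) of Clec3b, Clec11a and Clec3a in each array, streptozotocin left and control right, with lines joining the arrays of a culture and grey bars at the mean of 2 arrays. All 3 panels span the same range of log2 units. Clec3b separates by treatment, Clec11a by culture, and Clec3a varies by 0.31 in all.

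Clec11a had log2 values of 10.04 in WTA and 11.58 in WT2 cells with streptozotocin, against 10.42 in WTA and 12.25 in WT2 control cells. It was lower with streptozotocin in both cultures, as were Clec3b and 28.5% of all probe sets, but the groups overlapped because the 2 cultures lay far apart. The means were 10.81 ± 1.09 with streptozotocin and 11.34 ± 1.29 without it (SD, n = 2 arrays per group). The difference of -0.53 was smaller than the SD within either group, but each SD holds the gap between the cultures. Those SDs thus do not measure the spread of the treatment difference within cultures. Within the cultures the difference was -0.38 in WTA and -0.67 in WT2. When 1 array was left out, which unbalances the cultures, the difference ranged from -1.44 to 0.39. It was above 0 without the streptozotocin array of WTA (0.24) and without the control array of WT2 (0.39).

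The promoter of Clec11a is shown because this gene spanned the widest range of the 3 over the arrays (2.21 between lowest and highest) and because the study's design names Runx2, a transcription factor of bone formation, as a candidate regulator. The sequence holds the 250 bases before the annotated start, taken from RefSeq on GRCm38.p6, chr7:44306960-44307209, minus strand. It is printed 5′ to 3′ along the gene, with capitals marking a CCAAT box (CCAAT) and a GC box (GGGCGG).

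Clec11a promoter: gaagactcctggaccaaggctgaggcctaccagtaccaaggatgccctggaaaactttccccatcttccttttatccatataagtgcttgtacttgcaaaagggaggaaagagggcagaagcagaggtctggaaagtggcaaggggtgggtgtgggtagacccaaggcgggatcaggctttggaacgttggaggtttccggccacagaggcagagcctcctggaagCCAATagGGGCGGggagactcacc

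The CCAAT box lies 24 to 20 bases before the start and the GC box 17 to 12 bases before it, both on the printed strand and not overlapping. Searched on both strands, CCAAT occurs in 33.8% and GGGCGG in 32.7% of 32851 mouse promoters of this length. The letters of a Runx site, TGTGGT, are in 14.0% of them and not in this window, and those of a TATA box, TATAAA, are in 12.4% and also not in it. These are matches of letters only, and binding was not measured here.

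Clec3a had log2 values of 4.82 in WTA and 4.73 in WT2 cells with streptozotocin, against 4.73 in WTA and 5.04 in WT2 control cells. These values lay below the array medians, where background makes up part of the signal and differences are compressed. The difference between streptozotocin and control was 0.09 in WTA and -0.31 in WT2, so the cultures went opposite ways. Its 2 values of 4.73 were equal to every deposited digit, which was also seen at other probe sets (36 of 1246 had equal values in 2 or more arrays).

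In the fit across the table, limma called 0 of the 1246 measured probe sets (0%) between streptozotocin and control, with an adjusted p under 0.05 as the threshold, and 25 had an unadjusted p under 0.05. None of the 3 lectin genes was called, and with the culture as a replicate block the count was also 0, with 80 at an unadjusted p under 0.05. Both streptozotocin arrays lay below both control arrays at 13.8% of probe sets, Clec3b among them. Clec3b was at least 1.5-fold lower with streptozotocin in both cultures, as were 6 probe sets in all (0.482%). Clec11a passed 1.5-fold in WT2 only, where 2.49% of probe sets were lower by that size, while 1.69% were in WTA. These contrasts were known when the genes were chosen, so the shares only show where the genes lie in the table.

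**Figure D2:**
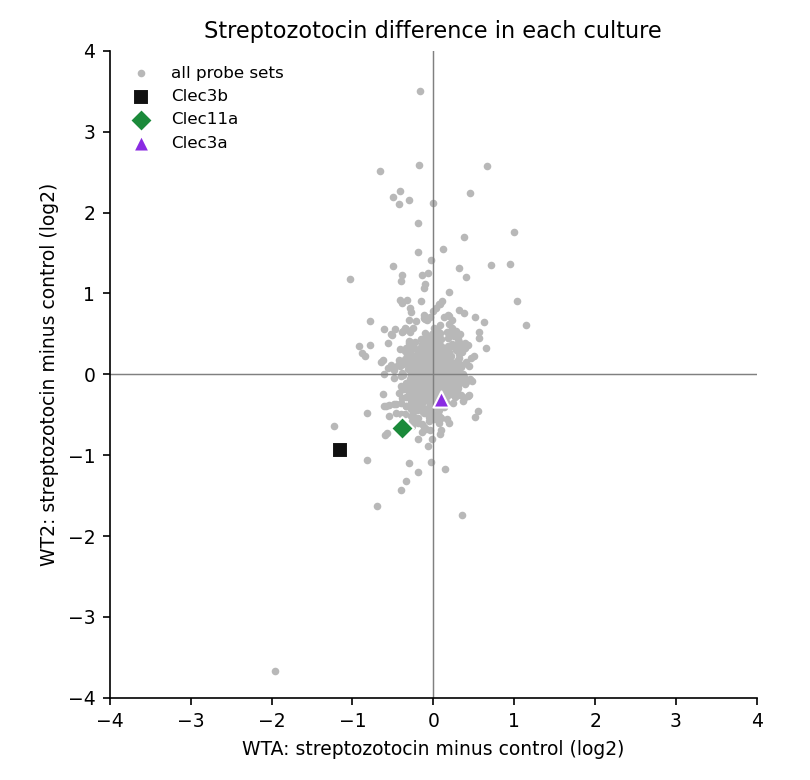
Difference between streptozotocin and control (log2) in WTA on the horizontal axis and in WT2 on the vertical axis, for 1246 probe sets in grey and the 3 lectin genes. Clec3b lies at -1.15 and -0.94, Clec11a at -0.38 and -0.67, and Clec3a at 0.09 and -0.31.

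Of the 3 genes, Clec11a differed most between the cultures. Its level was 10.23 ± 0.27 in WTA and 11.92 ± 0.47 in WT2 (SD, n = 2 each, 1 array per treatment), a difference of -1.69, which puts WTA at 0.311 times WT2. The gap was -1.54 with streptozotocin and -1.83 in control cells, and both WTA arrays lay below both WT2 arrays, as at 27.7% of probe sets. From low to high the arrays ran streptozotocin WTA, control WTA, streptozotocin WT2 and control WT2, with a step of 1.16 between the cultures.

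Clec3b had culture differences of the same sign, -0.61 with streptozotocin and -0.40 in control cells. Its levels were 8.10 ± 0.81 in WTA and 8.61 ± 0.66 in WT2 (SD, n = 2 each, 1 array per treatment). The difference of -0.51 was smaller than the SD within either culture, but each SD holds the treatment difference. Those SDs thus do not measure the spread of the culture difference. Without the streptozotocin array of WTA the culture difference was 0.07, a value that also holds the treatment difference because the layout is then unbalanced. Clec3a differed by 0.09 between WTA and WT2 with streptozotocin and by -0.31 in control cells. In the culture term of the fit across the table, limma called 28 of 1246 probe sets by the same threshold (2.25%), 10 of them lower in WTA (0.803%). Of the 3 lectin genes 1, Clec11a, was among these 10. This contrast was known when the genes were chosen, so the call only shows where Clec11a lies in the table. That call was lost after quantile normalization, among the 623 probe sets above the median level and in a fit with the culture alone. Clec11a was also not called with the culture alone and 1 array left out, whichever array it was. The size of its difference stayed between -2.02 and -1.35 with 1 array left out.

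**Figure D3:**
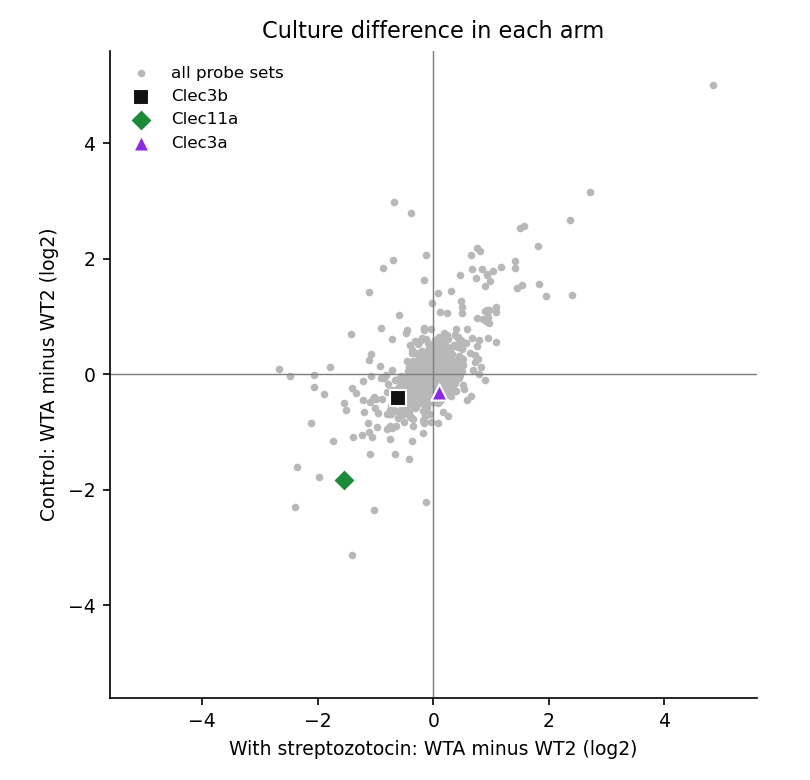
Difference between WTA and WT2 (log2) with streptozotocin on the horizontal axis and in control cells on the vertical axis, for 1246 probe sets in grey and the 3 lectin genes. Clec11a lies at -1.54 and -1.83, Clec3b at -0.61 and -0.40, and Clec3a at 0.09 and -0.31.

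The variation of a gene over 4 arrays in this layout splits without remainder into treatment, culture and the part by which the treatment difference varies with culture. For Clec3b 80.1% of it lay in treatment, 19.1% in culture and 0.81% in the third part. For Clec11a the order was turned, with 8.84% in treatment, 90.5% in culture and 0.65% in the third part. For Clec3a the third part held 62.3%. The medians over all probe sets were 18.9% for treatment and 43.6% for culture. A treatment share as high as that of Clec3b was found at 6.82% of probe sets, and a culture share as high as that of Clec11a at 10.1%. Clec3b and Clec11a both had their lowest value in WTA cells with streptozotocin and their highest in WT2 control cells, but ordered the other arrays differently (Pearson r = 0.67 across the 4 arrays, which share their normalization).

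Each lectin gene rests on 1 probe set. Over the 48 genes with more than 1 probe set, the streptozotocin differences of probe sets of 1 gene lay a median of 0.0956 apart, and 0.234 at the ninetieth percentile. For the culture difference these were 0.156 and 0.455. Such gaps hold no spread between samples.

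Genes with profiles most like Clec3b and Clec11a were found by the Euclidean distance between log2 values over the 4 arrays, each gene taken relative to its own mean. The nearest to Clec3b was Il17rd, which encodes a membrane protein that dampens fibroblast growth factor signals, at a distance of 0.43, where a flat profile would lie at 1.17. Its log2 values were 6.39 in WTA and 6.93 in WT2 with streptozotocin, against 6.98 in WTA and 7.68 in WT2 control cells. Both streptozotocin arrays thus lay below both control arrays, by a small step. Then followed the Wnt ligand gene Wnt2b (0.43), the Wnt receptor gene Fzd2 (0.53), the sulfotransferase gene Chst2 (0.57) and Angptl1 (0.59), which encodes an angiopoietin-like protein. Each of these 5 had the sign of Clec3b in either culture, with mean differences between -1.16 (Angptl1) and -0.54 (Fzd2). They were picked for their likeness to Clec3b, so the shared sign adds nothing to its difference. None of the 5 was called in either comparison.

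The nearest to Clec11a was Gfra1, a co-receptor of glial-derived neurotrophic factor, at a distance of 0.31, where a flat profile would lie at 1.77. Its log2 values were 6.23 in WTA and 8.21 in WT2 with streptozotocin, against 6.82 in WTA and 8.60 in WT2 control cells. Like Clec11a it was low in both WTA arrays and somewhat lower with streptozotocin in each culture. Angptl7 (0.52), of the same family as Angptl1, Cd34 (0.63), a surface sialomucin of progenitor and endothelial cells, the insulin-like growth factor gene Igf1 (0.65) and the fibroblast growth factor gene Fgf10 (0.67) came next. All 5 were lower in WTA on average, with differences between -1.88 (Gfra1) and -1.07 (Cd34). Gfra1, Cd34 and Fgf10 were among the 28 called between cultures, but they were picked for their likeness to a called gene, so this adds nothing to the call of Clec11a.

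**Figure D4:**
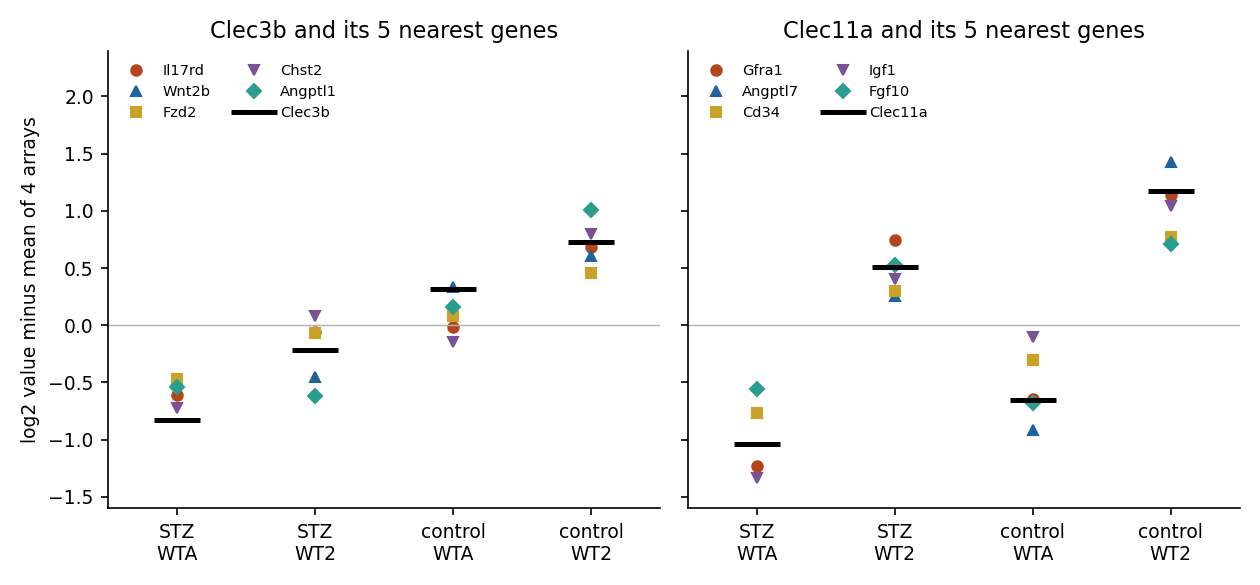
Log2 values relative to each gene's mean over 4 arrays, for Clec3b and Clec11a (black bars) and the 5 genes nearest to each (symbols), with streptozotocin (STZ) arrays left of control arrays. The 5 genes near Clec3b lie below 0 in the STZ array of WTA and above 0 in the control array of WT2, and the 5 near Clec11a lie below 0 in both WTA arrays.

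Other lectins with the same domain went both ways, as did the probe sets of the whole table. Of 28 further soluble, matrix or related C-type lectin genes listed, 23 were measured. With streptozotocin 7 of these were lower and 6 higher in both cultures, beside 355 and 281 of all 1246 probe sets. Their median difference was -0.0001, beside -0.0081 over all probe sets. In neither comparison did limma call any of them. Several, such as Colec10 (mean of 2.76), Cd93 (3.68) and Clec14a (4.04), lay below the array medians, where differences are compressed. Others, such as Cd248 (11.35), lay above them. The largest positive difference was at Thbd, a cofactor of thrombin, with 10.57 in WTA and 9.64 in WT2 cells with streptozotocin, against 10.37 in WTA and 8.63 in WT2 control cells. Chodl, chondrolectin, differed by -0.10 in WTA and 1.11 in WT2, and Vcan, the matrix proteoglycan versican, by -0.40 and 1.15 in the same order. Pkd1, polycystin 1, differed by -0.28 and -0.51, and the scavenger receptor gene Colec12 by -0.28 and -0.43. Between cultures, WTA minus WT2 was 1.33 for Thbd, -1.12 for Vcan, -0.69 for Colec12 and -0.50 for Cd248, endosialin of stromal cells.

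Of 34 membrane C-type lectin genes, mainly of leukocytes, 26 were measured, and again none was called in either comparison. Their median streptozotocin difference was -0.0063, with 6 lower and 5 higher in both cultures, beside 355 and 281 of all 1246 probe sets. Several, such as Clec4a2 (mean of 2.34), Cd69 (2.92) and Clec1a (3.11), also lay below the array medians, so small differences there say little. Clec2d (8.56) lay above them. Olr1, a receptor for oxidised lipoprotein, went opposite to Clec3b, with 6.10 in WTA and 6.60 in WT2 cells with streptozotocin, against 5.07 in WTA and 5.69 in WT2 control cells. The others differed by at most 0.36, at Ly75, an endocytic receptor. Mrc2, a collagen-binding receptor, differed by -0.17, Clec1a by -0.18, and between cultures Clec2d by 0.24, Mrc2 by -0.34 and Olr1 by -0.56.

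Of 17 genes of plasminogen activation and of kringle proteins, 3 were measured and none was called. Plasminogen itself, the partner of tetranectin, was not among the named probe sets. Met, the receptor of hepatocyte growth factor, differed between streptozotocin and control by 0.56 in WTA and 0.52 in WT2. Hgf, its kringle-bearing ligand, differed by 0.11 and 0.90, and S100a10, part of a plasminogen receptor, by 0.04 on average.

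Of 25 genes for receptors and Wnt signalling tied to osteolectin, 5 were measured. The integrin gene Itga11, for the receptor of osteolectin, was not among the named probe sets. None was called with streptozotocin, with a median of -0.17 and 3 of 5 lower in both cultures, among them Fzd2 at -0.54. Over all probe sets 28.5% were lower in both cultures, and 5 genes are too few to set against that share. Fzd2 is also among the genes picked above for their likeness to Clec3b. Fzd1, a Wnt receptor, was called lower in WTA, as were 0.803% of all probe sets, with a culture difference of -1.15. Wnt5a and Wnt16, Wnt ligands, differed by -0.44 and -0.08 between cultures.

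Of 45 genes of bone and calcification, 23 were measured and none was called with streptozotocin. Their median streptozotocin difference was -0.18, and 12 of 23 were lower and 4 higher in both cultures, beside 355 and 281 of all 1246 probe sets. The list was written with earlier results of these data known, so these counts are not independent evidence of a direction. Igfbp5, a binding protein of insulin-like growth factors, differed by -1.95 in WTA and -3.67 in WT2, Igf1 by -1.23 and -0.64, Lum, lumican, by -0.34 and -1.32, and the growth factor gene Fgf18 by -0.43 and -0.62. Between cultures, Gdf10, from the bone morphogenetic protein family, was called lower in WTA (-1.98). Igfbp5 (-2.26), Igf1 (-1.44) and Bmp4, a bone morphogenetic protein (1.24), were not called.

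**Figure D5:**
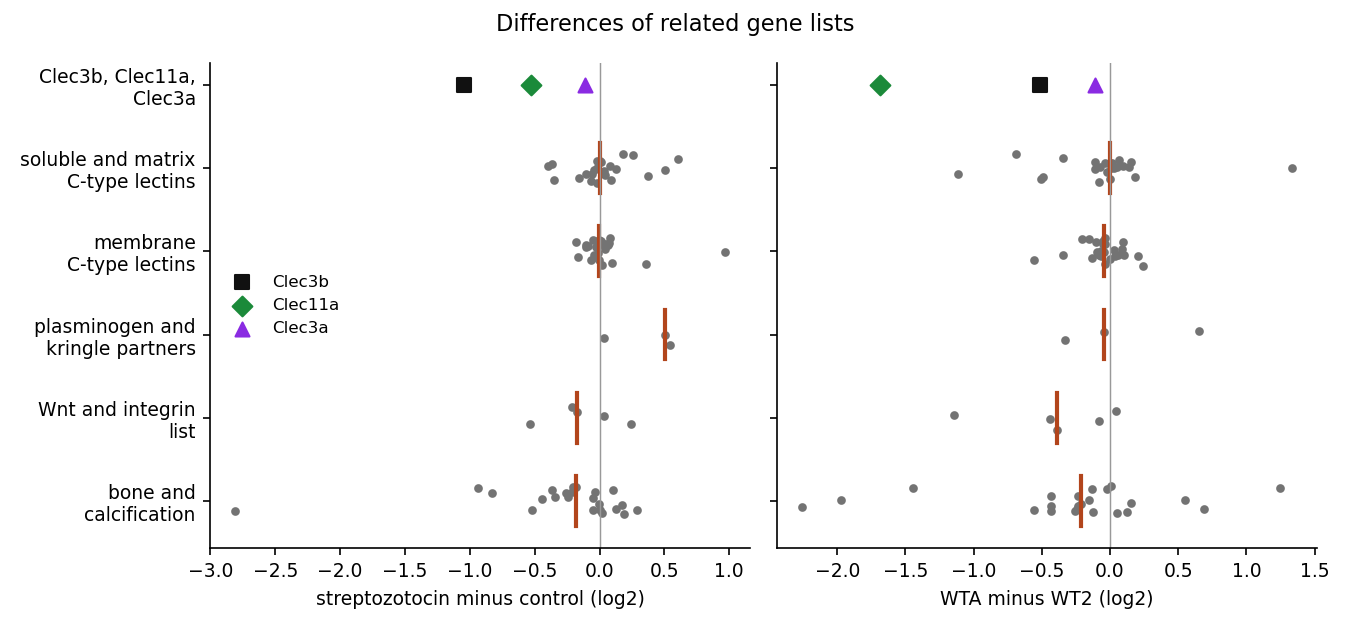
Differences between streptozotocin and control (left) and between WTA and WT2 (right) in log2 units, for the 3 lectin genes (top) and the measured genes of 5 related lists (grey points, 1 probe set per gene, with red bars at the list median). Clec3b (-1.04) lies below all 23 measured genes of the list of soluble, matrix or related lectins on the left, and Clec11a (-1.69) below them on the right. Clec3b and Clec11a were chosen with these differences known, so their place relative to the list is no test. Several of those lectins had values below the array medians, where differences are compressed.

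The 3 measured fibroblast and matrix markers had streptozotocin differences of the same sign as Clec3b and Clec11a, and limma called none of them. Over all probe sets 28.5% were lower in both cultures, and 3 genes are too few to set against that share. Dcn and Lum also belong to the bone and calcification list above. Dcn, decorin, differed between streptozotocin and control by -0.39 in WTA and -0.29 in WT2. Pdgfra, a growth factor receptor of mesenchymal cells, differed by -0.35 and -0.49, and Lum by -0.34 and -1.32. The mean of the 3 was 10.90 in WTA and 11.23 in WT2 with streptozotocin, against 11.26 in WTA and 11.93 in WT2 control cells. Between cultures, WTA minus WT2 was -0.48 with streptozotocin and -0.38 in control cells for Dcn, and -0.75 and -0.89 for Pdgfra. For Lum it was 0.26 with streptozotocin, opposite in sign to Clec11a, and -0.72 in control cells. Their part in the differences of Clec3b and Clec11a was not tested. In such bulk samples fewer cells of a type and less RNA per cell cannot be told apart.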

How the data were processed

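Per the labels' protocols, Trizol-extracted RNA of the VSMC (0.5 ug) was turned into biotinylated cRNA as Affymetrix prescribes. Per the submitters' processing notes the log2 values per probe set that the authors deposited are RMA values, of a version not given in the sources used here. This method usually evens out the arrays' distributions, which hides a common shift of most genes.

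Of 1246 probe sets 962 were given 1 symbol by unversioned accession (table of GRCm38.p6, names only), which gave 908 genes. For genes in lists the probe set with the highest mean was used. Streptozotocin against control was fitted with limma 3.58.1 in R 4.3.3 without a block, and the culture term with treatment, with Benjamini-Hochberg adjustment over all probe sets. Groups, replicate numbers and cultures came from the titles, whose "3w" was not interpreted. A replicate number marks 1 named cell sample, so the numbers pair the arrays (correlation of deviations 0.6). The p-values measure only the spread between these arrays, which may be technical. In the streptozotocin fit without a block, that spread includes the difference between the cultures. For the culture term it is the part by which the treatment difference varies with culture, with 1 residual degree of freedom. The fits were tested on simulated data with independent noise in each array. For the streptozotocin fit those data held no culture difference, so that test cannot show how the fit behaves on these arrays.

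Members and lists were chosen with earlier results of these data known. Named were the 3 genes, the 5 nearest profiles to Clec3b and Clec11a, and up to 4 genes per list and comparison with the largest difference; Dcn and Pdgfra are fibroblast markers and Colec12's streptozotocin value was added. The alternatives tried were an intensity trend, quantile normalization, arrays centred on their medians, brighter probe sets only, the culture fitted alone, leaving out single arrays and the replicate block.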

Additional observations from a re-analysis of the deposited data

Results flagged for a closer look

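Clec3a was singled out because its streptozotocin difference went opposite ways in the cultures, 0.0901 in WTA and -0.3101 in WT2, with 1 array per arm in each. The difference between the cultures was not tested. The values of Clec3a lay below the array medians, where differences are compressed. Its streptozotocin value in WT2 and its control value in WTA were equal (4.7317).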

How the results depend on the processing

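The direction of the 6 lectin gene differences (3 genes, 2 comparisons) was kept in 12 of 12 values under median centring and quantile normalization, which moved them by at most 0.0894. Leaving out 1 array gave ranges of -1.35 to -0.74 for Clec3b, -1.44 to 0.39 for Clec11a and -0.265 to 0.0451 for Clec3a between streptozotocin and control. Between WTA and WT2 they were -1.08 to 0.0656, -2.02 to -1.35 and -0.265 to 0.0451 in the same order of genes. The Clec3a values above 0 came without the control array of WT2, and the Clec3b value above 0 without the streptozotocin array of WTA. Such values also hold the difference of the other factor, since the layout is then unbalanced. The replicate block leaves the streptozotocin differences as they are (-1.04 for Clec3b) and gave 0 calls by limma, as did every other setting of that fit, with 5 to 80 probe sets at an unadjusted p under 0.05. Probe sets called between cultures numbered 28, against 37 after median centring, 35 with an intensity trend, 8 after quantile normalization, 2 of the 623 above the median level and 13 with the culture alone. With the culture alone and 1 array left out, an alternative chosen after seeing the data, there were 0 to 18: 0 without either WTA array, 18 without the streptozotocin array of WT2 and 12 without the control array of WT2. The fit with treatment and culture has no residual degrees of freedom on 3 arrays, so it was not run there. Each of the 3 genes has 1 probe set, so no mean over several could be taken. The filter tests fewer probe sets; the cause of the other changes was not tested.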
